A study of Rattus norvegicus with 12 samples.

Results

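The genes of the transforming growth factor beta (TGF-β) pathway were followed in wounds of diabetic rats under 4 treatments. The set held 10 genes, listed by symbol with earlier results of these data known, out of 25620 genes in the table of read counts and 25524 in the table of expression levels. It comprised the TGF-β ligands Tgfb1, Tgfb2, and Tgfb3, the activin subunit Inhba, the latent TGF-β binding protein Ltbp2, the receptors Tgfbr1, Tgfbr2, and Tgfbr3, the inhibitory SMAD gene Smad7, and the target gene Ccn2. All 10 were found in both tables, and all 10 passed the filter on low counts.

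The animals were male Sprague-Dawley rats, obtained at 8 to 12 weeks of age and made diabetic with streptozotocin, a toxin of the insulin-producing beta cells, and each carried a circular full-thickness wound on the back. The wounds received saline (control), the dried snail mucus gel of Achatina fulica (d-SMG), the sulfated glycosaminoglycan prepared from that gel (s-GAG, written GAG in the labels), or a commercial alginate dressing (Alg). Skin was taken on day 3, 7, and 14, and total RNA depleted of ribosomal RNA was sequenced, giving 12 libraries with 1 library for each treatment and day. Diabetes and wounding were thus shared by all groups, controls included, and neither unwounded skin nor wounds of healthy rats were analysed here. The number of animals pooled into a library was not given in the sources used here, and streptozotocin diabetes is a model of insulin loss.

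TGF-β is secreted as an inactive complex, held in the extracellular matrix by latent TGF-β binding proteins, and has to be released before it can bind. The released ligand binds the type II receptor, which recruits and phosphorylates the type I receptor, and SMAD proteins then carry the signal to the nucleus. In healing skin the pathway is known for drawing in fibroblasts, for the formation of granulation tissue and myofibroblasts, and for collagen deposition. Activin A, a dimer of the Inhba product, belongs to the same superfamily, signals through the same SMADs, and is known for its induction in skin wounds.

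Promoter sequences are shown for Inhba and Ltbp2, the ligand and the matrix protein that the comparisons below turn on, and for Ccn2, the classical target gene of the set. Each is the 250 bases before the start of the RefSeq gene on the GRCr8 assembly, read 5′ to 3′ on the minus strand, on which all 3 genes lie. Capitals mark CAGAC, the core that SMAD proteins recognise, GGAATG, the core of TEAD factors, and TATAAA, the TATA box, each searched on both strands.
Inhba, chr17:53804509-53804758: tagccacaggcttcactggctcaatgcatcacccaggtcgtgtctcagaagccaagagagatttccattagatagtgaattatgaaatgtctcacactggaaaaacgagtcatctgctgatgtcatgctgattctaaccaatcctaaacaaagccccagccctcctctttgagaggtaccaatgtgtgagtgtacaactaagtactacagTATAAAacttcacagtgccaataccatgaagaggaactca
Ccn2, chr1:22624615-22624864: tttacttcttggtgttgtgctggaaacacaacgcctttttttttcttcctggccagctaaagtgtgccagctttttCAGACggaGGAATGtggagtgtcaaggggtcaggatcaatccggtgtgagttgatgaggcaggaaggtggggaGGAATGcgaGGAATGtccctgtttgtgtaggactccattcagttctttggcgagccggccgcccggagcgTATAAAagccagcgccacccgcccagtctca
Ltbp2, chr6:110257299-110257548: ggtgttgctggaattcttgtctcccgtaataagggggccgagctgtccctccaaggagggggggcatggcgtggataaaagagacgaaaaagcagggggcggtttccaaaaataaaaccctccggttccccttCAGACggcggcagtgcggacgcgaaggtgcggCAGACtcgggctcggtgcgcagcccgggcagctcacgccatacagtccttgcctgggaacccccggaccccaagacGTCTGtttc
Ccn2 held 3 copies of GGAATG, 1 of CAGAC, and 1 TATAAA. Ltbp2 held 3 copies of CAGAC, the last of them on the opposite strand (written GTCTG), and Inhba held 1 TATAAA and no copy of the other motifs. The marked motifs did not overlap each other. Among 33469 RefSeq promoter windows of the same length, CAGAC occurred in 42.9%, GGAATG in 12.1%, and TATAAA in 12.9%. Windows with 3 or more copies made up 2.54% for CAGAC and 0.0807% for GGAATG. The windows of the other 7 genes held none of the 3 motifs. A match is a run of letters, and binding was not measured.

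The libraries held 13748887 to 38302461 reads assigned to genes. All 10 markers each of keratinocytes, fibroblasts, endothelium, and skeletal muscle were detected in every library, which fits skin tissue with underlying muscle. The libraries nevertheless differed widely in composition. Summed over 10 markers, keratinocyte genes ranged from 53.2 to 30210 CPM (read counts scaled by library size), hair follicle genes from 25.2 to 42050 CPM, skeletal muscle genes from 4217 to 173800 CPM, and fibroblast genes from 1304 to 8723 CPM. At least 9 of 10 macrophage markers were detected in every library, with Marco at 0 in 3 libraries, and their sum ranged from 292 to 2696 CPM. At least 6 of 10 neutrophil, 8 of 10 hair follicle, 5 of 7 platelet, and 7 of 8 adipocyte markers were detected. The d-SMG library of day 3 and the s-GAG library of day 14 stood apart, with scaling factors of 0.741 and 0.744 against 0.942 to 1.26 in the others. The former had the lowest keratinocyte and the highest muscle sum, and the latter the lowest fibroblast and macrophage sums. In such bulk tissue, fewer cells of a type and less RNA per cell cannot be told apart.

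Per unit of transcript length, as read pairs scaled by transcript length and depth (FPKM, normalised by the authors), the receptor Tgfbr2 and the target Ccn2 were the most abundant genes of the set. Tgfbr2 had a median of 55.5 FPKM over the 12 libraries, with a range of 21.6 to 76.1 FPKM, and Ccn2 a median of 37.9 FPKM, with a range of 16.6 to 66.7 FPKM. The co-receptor Tgfbr3 followed with a median of 13.0 FPKM. The 3 TGF-β ligands were lower, at medians of 7.36 FPKM for Tgfb3, 6.27 FPKM for Tgfb1, and 2.68 FPKM for Tgfb2. The type I receptor Tgfbr1 had a median of 4.89 FPKM and Inhba one of 4.34 FPKM, between those of Tgfb1 and Tgfb2. Ltbp2 and Smad7 were the least abundant, at medians of 1.87 and 1.35 FPKM. The ranges of every pair of neighbours in this order overlapped. Within a library, Ccn2 exceeded Tgfbr3 in 12 of 12 and Tgfbr3 exceeded Tgfb3 in 11 of 12, whereas Tgfb3 exceeded Tgfb1 in 7 of 12, so that this last pair had no fixed order.

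**Figure D1:**
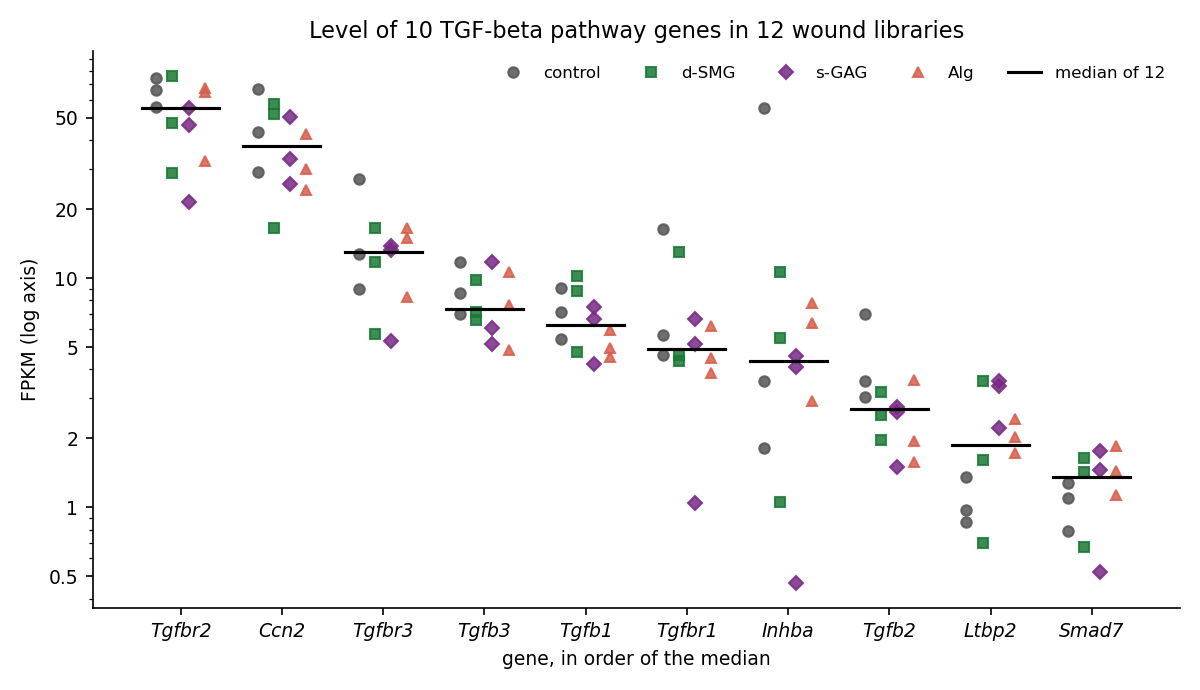
Expression level in FPKM, on a log axis, of the 10 TGF-β pathway genes in the 12 wound libraries, with genes ordered by their median. Tgfbr2 and Ccn2 lie at the top at medians of 55.5 and 37.9 FPKM, and Inhba has the widest spread, from 0.47 to 55.1 FPKM.

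The genes also differed in how much they varied between libraries. The standard deviation (SD) of log2 CPM over the 12 libraries was 1.60 for Inhba, above that of 95.3% of all 16110 genes tested, whose median was 0.58. Tgfbr1, Ltbp2, and Tgfb2 followed with SDs of 0.86, 0.78, and 0.63. The other 6 genes lay below the median of all genes, down to 0.35 for Tgfb3 and 0.38 for Tgfb1. In CPM the highest library exceeded the lowest 91.0-fold for Inhba, 12.1-fold for Tgfbr1, 5.49-fold for Ltbp2, and 2.14-fold for Tgfb1. All CPM values were scaled by the trimmed mean of M values (TMM), and they compare 1 gene between libraries.

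Inhba, the activin A subunit, was set apart by the control wound of day 7. The control wounds had 12.5 CPM on day 3, 391 CPM on day 7, and 24.6 CPM on day 14. In d-SMG wounds the corresponding values were 9.89, 59.8, and 34.2 CPM. In Alg wounds they were 19.1, 58.5, and 40.4 CPM. Day 7 was thus the highest of the 3 days in these 3 treatments. The s-GAG wounds had 29.0 CPM on day 3, 28.5 CPM on day 7, and 4.30 CPM on day 14, without a day 7 maximum. From day 3 to day 7 the level was 31.3-fold higher in control, 6.04-fold in d-SMG, and 3.06-fold in Alg wounds, and 0.98-fold in s-GAG wounds. The read counts behind the extremes were 5727 in the control library of day 7 and 63 in the s-GAG library of day 14, and the 95% counting intervals were 381 to 401 CPM and 3.30 to 5.50 CPM.

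The levels of day 3 and day 7 overlapped through the s-GAG wounds, and without them every day 7 wound lay above every day 3 wound. In the fit of treatment and day to all 12 libraries, Inhba on day 7 against day 3 had a log2 fold change of 2.19 ± 0.95 (SE), a 4.56-fold difference. Its p of 0.0459 became 0.999 after Benjamini-Hochberg adjustment over 16110 genes by the quasi-likelihood test of edgeR, so the difference did not pass. Day 14 against day 7 gave −1.93 ± 0.90 (adjusted p = 0.904). Against control, the fitted log2 fold changes were −1.21 ± 1.02 for d-SMG, −1.62 ± 1.10 for s-GAG, and −0.86 ± 1.02 for Alg (edgeR adjusted p = 1, 0.63, and 1). The values for d-SMG and Alg rested on the control library of day 7, without which they became 0.38 and 0.66. The value for s-GAG became 0.09 without the day 7 libraries. Its log2 ratios on the other days lay on opposite sides of control, at 1.22 on day 3 and −2.52 on day 14.

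Fibroblast markers moved with Inhba. Their sum was highest in the control library of day 7 (8723 CPM) and lowest in the s-GAG library of day 14 (1304 CPM), the libraries with the highest and the lowest Inhba level. Over the 12 libraries, log2 Inhba and the log2 sum of the 10 fibroblast markers had r = 0.83 and rho = 0.78, and r = 0.67 without the 2 libraries farthest from the median of the marker sum. The day 7 d-SMG wound had a fibroblast sum of 8056 CPM, close to that of the control wound, at 59.8 CPM of Inhba against 391 CPM. The part of fibroblast content in the Inhba values was not tested.

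**Figure D2:**
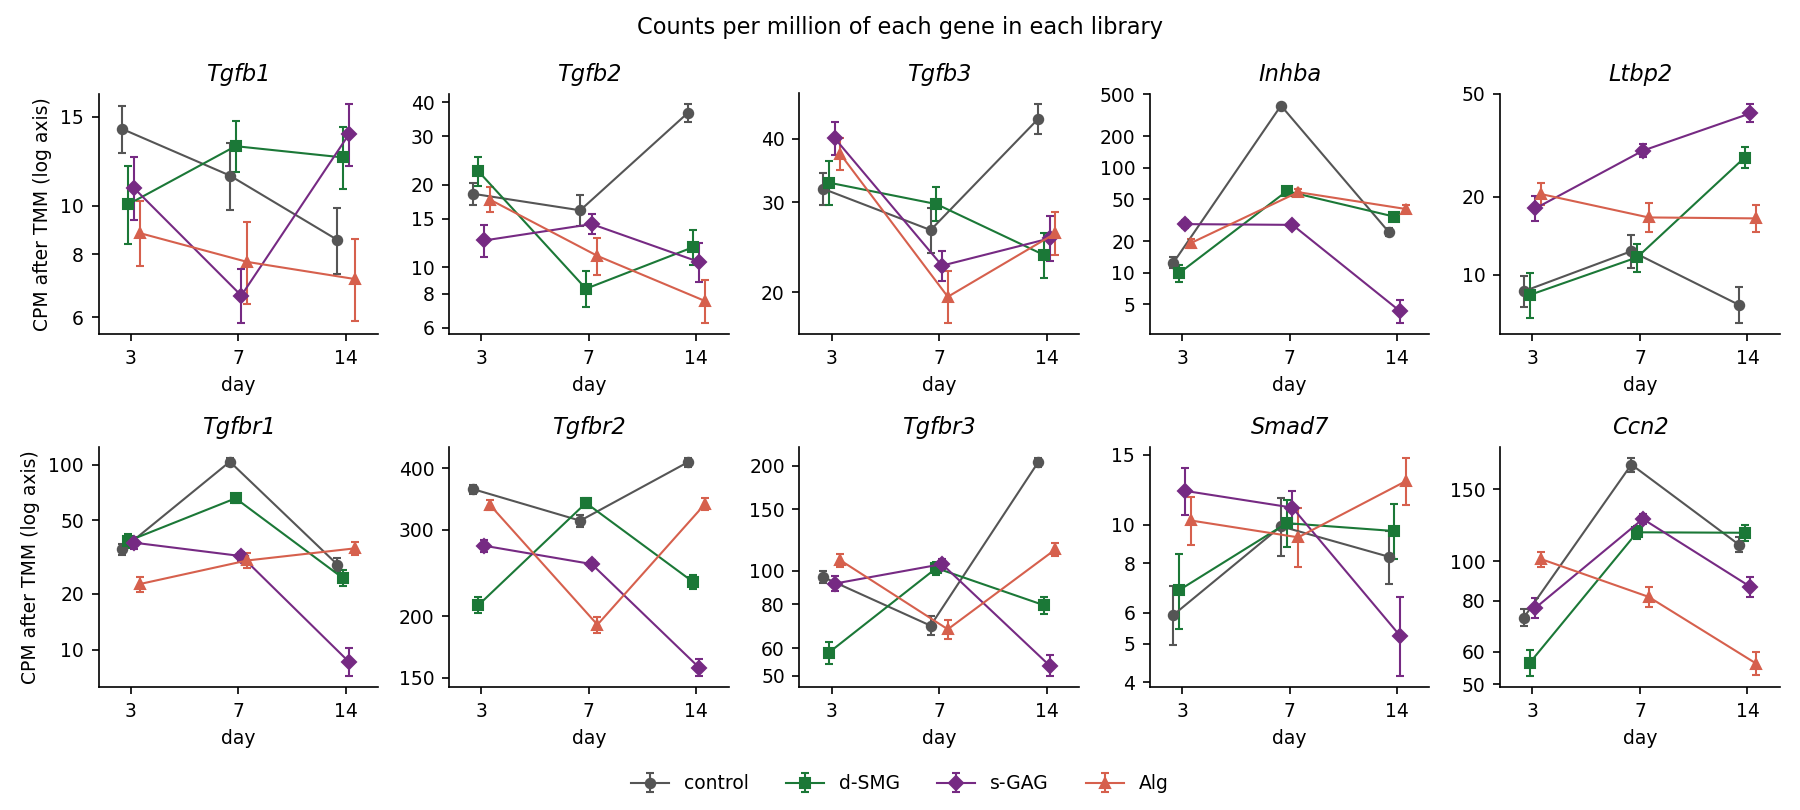
CPM after TMM scaling, on log axes, by day after wounding for each of the 10 genes, with 1 point per library, lines joining the 3 days of a treatment, and bars for the 95% counting interval. Inhba peaks at 391 CPM in the control wound of day 7, and Ltbp2 is highest at 42.1 CPM in the s-GAG wound of day 14.

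Ltbp2, a matrix protein related to the proteins that store latent TGF-β but which itself is known not to bind it, was higher in s-GAG than in control wounds on each day. Control wounds had 8.65, 12.4, and 7.67 CPM on day 3, 7, and 14. The s-GAG wounds had 18.1, 30.2, and 42.1 CPM, so that all 3 exceeded all 3 controls. Alg wounds had 20.5, 16.7, and 16.5 CPM, which also lay above all 3 controls. The d-SMG wounds had 8.36 and 11.7 CPM on day 3 and 7, within the range of the controls, and 28.4 CPM on day 14, above it. On day 14 the ratios to control were 5.49-fold in s-GAG, 3.70-fold in d-SMG, and 2.16-fold in Alg wounds. These ratios rest on 617, 451, and 266 reads against 157 in the control library. In FPKM the s-GAG and d-SMG wounds of day 14 were level at 3.55, beside 2.02 in Alg and 0.86 in control wounds. The order of s-GAG and d-SMG on that day thus depended on the scaling.

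In the fit over all days, Ltbp2 had a log2 fold change of 1.56 ± 0.45 (SE) for s-GAG against control, a 2.95-fold difference. The unadjusted p was 0.0065 and the adjusted p 0.429 by edgeR, at rank 244 of 16110 genes. Over the alternative settings the log2 fold change stayed positive and the adjusted p ranged from 0.0574 with DESeq2 to 0.892 without the control library of day 14, so no setting called it. Alg against control gave 0.92 ± 0.44 and d-SMG against control 0.61 ± 0.45 (edgeR adjusted p = 1 for both). The d-SMG value became −0.00076 without the day 14 libraries. The gel and its glycosaminoglycan differed by −0.95 ± 0.44 (d-SMG against s-GAG, edgeR adjusted p = 0.926), and across all treatments day 14 against day 3 gave 0.66 ± 0.39 (edgeR adjusted p = 0.882).

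Summed levels of epidermal, follicle, and macrophage markers moved with Ltbp2. In the fit of s-GAG against control, 10 of 10 hair follicle markers were positive with a median log2 fold change of 5.95, 6 of 10 keratinocyte markers were positive with a median of 1.14, and 9 of 9 macrophage markers tested were negative with a median of −1.40. None passed the test. Over 12 libraries, log2 Ltbp2 had r = 0.60 and rho = 0.74 with the keratinocyte sum, r = 0.60 and rho = 0.66 with the hair follicle sum, and r = −0.65 and rho = −0.73 with the macrophage sum. Without the 2 libraries farthest from the median these r were 0.66, 0.34, and −0.58. The s-GAG library of day 14 had the highest Ltbp2 in CPM and the highest keratinocyte sum of all, at 30210 CPM. Yet 6 of 10 keratinocyte markers in it lay below the control of that day, with a median log2 ratio of −1.21. That library had 5833 CPM of hair follicle markers, while the Alg day 14 library had 42050 CPM at 16.5 CPM of Ltbp2. The part of tissue composition in the Ltbp2 values was not tested.

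**Figure D3:**
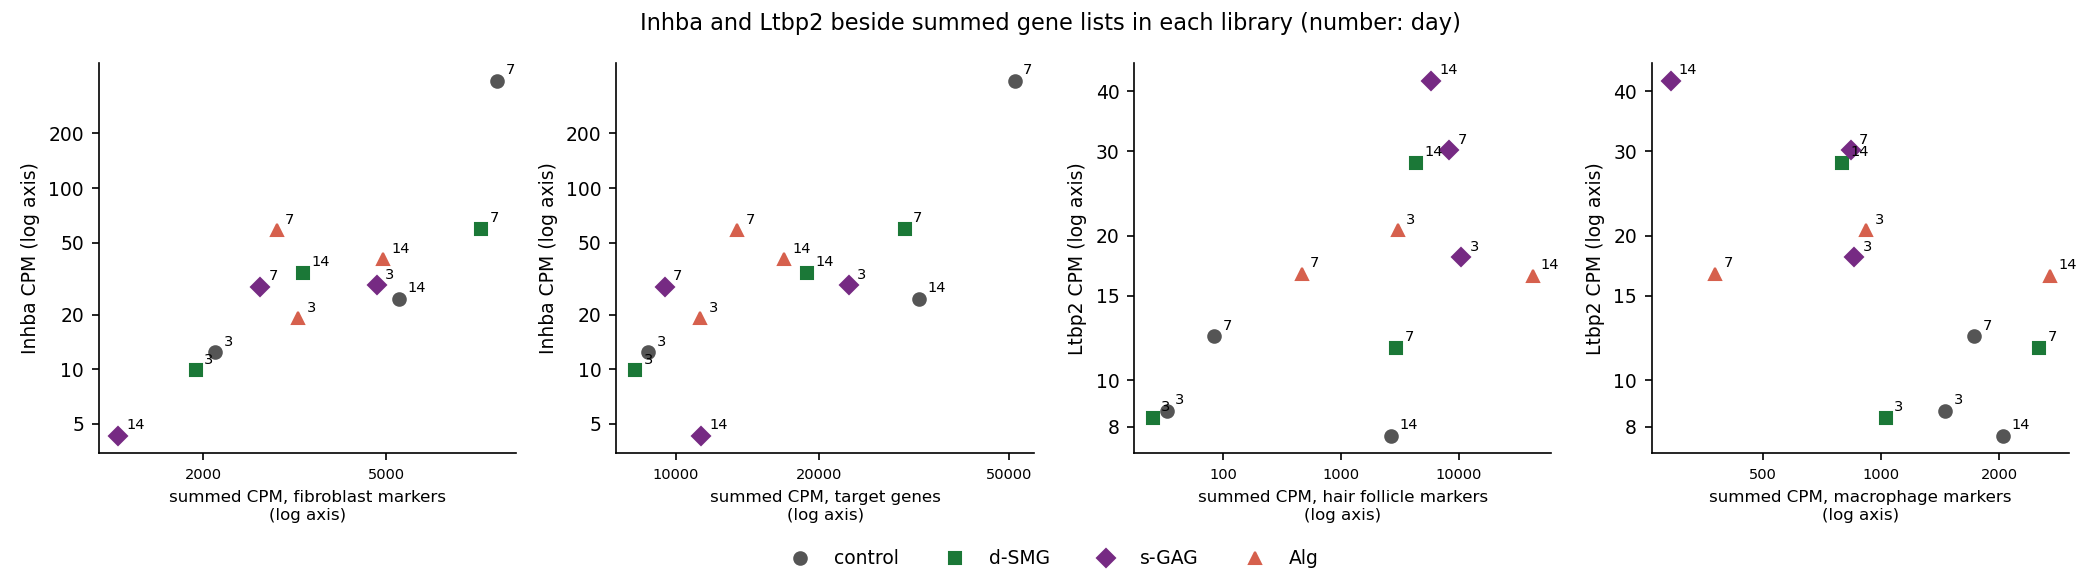
Level of Inhba against the summed CPM of fibroblast markers and of TGF-β target genes, and of Ltbp2 against that of hair follicle and macrophage markers, on log axes, with 1 point per library. The control wound of day 7 is highest in Inhba, fibroblast markers, and target genes, and the r over 12 libraries is 0.83, 0.74, 0.60, and −0.65 in the 4 panels.

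Among the TGF-β ligands, Tgfb1, the isoform released by platelets and macrophages, had the narrowest range of CPM over the 12 libraries, just below that of Tgfb3. Control wounds had 14.2, 11.5, and 8.55 CPM on day 3, 7, and 14. The d-SMG wounds had 10.1, 13.1, and 12.5 CPM. The s-GAG wounds had 10.8, 6.62, and 13.8 CPM, and the Alg wounds 8.82, 7.73, and 7.15 CPM. The Alg wounds thus lay below the control wounds of the same day on all 3 days, at a fitted log2 fold change of −0.53 ± 0.35 (edgeR adjusted p = 1), while d-SMG and s-GAG wounds lay on both sides. No single-day ratio of Tgfb1 passed 2-fold.

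Tgfb2 was lower in dressed wounds on day 14, where the control wound was highest. Control wounds had 18.5, 16.1, and 36.5 CPM on day 3, 7, and 14. The d-SMG wounds had 22.4, 8.33, and 11.8 CPM. The s-GAG wounds had 12.5, 14.4, and 10.4 CPM, and the Alg wounds 17.6, 11.0, and 7.52 CPM. On day 3 the dressed wounds lay within 1.48-fold of control, whereas on day 14 the control was 3.09-fold above d-SMG, 3.50-fold above s-GAG, and 4.86-fold above Alg. The fitted log2 fold changes against control were −0.84 ± 0.47, −0.92 ± 0.47, and −1.03 ± 0.47 for d-SMG, s-GAG, and Alg (edgeR adjusted p = 1, 0.567, and 1). These comparisons share the control libraries, and without the control library of day 14 they became −0.19, −0.29, and −0.43. Day 7 against day 3 gave −0.55 ± 0.40 (edgeR adjusted p = 0.999).

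Tgfb3, the isoform known from studies of scarring, had the smallest SD of log2 CPM in the set. Control wounds had 31.9, 26.5, and 43.8 CPM on day 3, 7, and 14, d-SMG wounds 32.8, 29.8, and 23.7 CPM, s-GAG wounds 40.1, 22.6, and 25.5 CPM, and Alg wounds 37.3, 19.6, and 26.1 CPM. In CPM the 3 dressed wounds lay above control on day 3 and below it on day 14. The d-SMG log2 ratio of day 3 was 0.04, with a counting interval of −0.14 to 0.22, so its side of control was not settled. In CPM every day 7 library lay below every day 3 library. In FPKM the d-SMG wound of day 7, at 9.81, exceeded the day 3 wounds of control and d-SMG, at 8.59 and 6.56. The fitted log2 fold change of day 7 against day 3 was −0.55 ± 0.27 (edgeR adjusted p = 0.999). No single-day ratio passed 2-fold.

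Tgfbr1, the type I receptor kinase that phosphorylates the SMADs, was highest in the control wound of day 7, as Inhba was. Control wounds had 34.8, 104, and 28.8 CPM on day 3, 7, and 14. The d-SMG wounds had 38.6, 65.7, and 24.3 CPM. The s-GAG wounds had 37.8, 32.0, and 8.59 CPM. Day 14 lay below day 7 in these 3 treatments, by 3.60-fold, 2.71-fold, and 3.73-fold. The Alg wounds, with 22.6, 30.3, and 35.2 CPM, had their lowest value on day 3 and their highest on day 14. The fitted log2 fold change of day 14 against day 7 was −1.18 ± 0.46 (edgeR adjusted p = 0.904), a 2.27-fold lower level that did not pass. Day 7 against day 3 gave 0.61 ± 0.45 and day 14 against day 3 −0.57 ± 0.46 (edgeR adjusted p = 0.999 and 0.897). Against control, s-GAG gave −1.02 ± 0.53 and Alg −0.62 ± 0.52 (edgeR adjusted p = 0.569 and 1), and d-SMG against s-GAG gave 0.72 ± 0.52 (edgeR adjusted p = 0.926). Over 12 libraries Tgfbr1 and Inhba had r = 0.81 and rho = 0.51, and r = 0.68 without the control library of day 7.

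Tgfbr2, the ligand-binding type II receptor, and Tgfbr3, the co-receptor betaglycan that presents TGF-β to it, had like profiles, with r = 0.82 and rho = 0.80 over 12 libraries. Tgfbr2 had 363, 313, and 411 CPM in control wounds on day 3, 7, and 14, 211, 340, and 235 CPM in d-SMG wounds, 278, 255, and 157 CPM in s-GAG wounds, and 337, 192, and 338 CPM in Alg wounds. Tgfbr3 had 95.9, 69.6, and 204 CPM in control wounds, 58.2, 102, and 79.6 CPM in d-SMG wounds, 91.8, 104, and 53.5 CPM in s-GAG wounds, and 107, 67.9, and 115 CPM in Alg wounds. For both genes the control wound of day 14 was the highest of all 12 libraries in CPM. In FPKM, Tgfbr2 was highest in the d-SMG wound of day 7, at 76.1 against 74.9 in that control wound. The lowest for both genes was the s-GAG wound of day 14, the library with the lowest fibroblast and macrophage sums, whose part in this was not tested. Over 12 libraries log2 Tgfbr2 had r = 0.86 and rho = 0.825 with the macrophage sum, and r = 0.80 without the 2 farthest libraries. With the fibroblast sum its r was 0.67. For Tgfbr3 the r were 0.62 with the macrophage and 0.48 with the fibroblast sum. The fitted log2 fold change was −0.66 ± 0.39 for Tgfbr2 in s-GAG against control and −0.57 ± 0.47 for Tgfbr3 in d-SMG against control (edgeR adjusted p = 0.591 and 1). The latter became 0.02 without the day 14 libraries.

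Smad7, which is induced by TGF-β and blocks the type I receptor in a negative feedback, was low throughout. Control wounds had 5.92, 9.90, and 8.30 CPM on day 3, 7, and 14. The d-SMG wounds had 6.84, 10.1, and 9.63 CPM. The s-GAG wounds had 12.2, 11.0, and 5.25 CPM, and the Alg wounds 10.2, 9.29, and 12.9 CPM. The s-GAG series ran from the second highest value of the 12 libraries to the lowest, and every fitted log2 fold change of Smad7 was under 0.5 in size. In CPM the 3 dressed wounds lay above control on day 3 only. The d-SMG log2 ratio of that day was 0.21, with a counting interval of −0.20 to 0.61, so its side of control was not settled. In FPKM that d-SMG wound lay below control, at 0.67 against 0.79.

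Ccn2, encoding connective tissue growth factor, is a matricellular protein gene induced by TGF-β in fibroblasts. Control wounds had 72.9, 173, and 110 CPM on day 3, 7, and 14. The d-SMG wounds had 56.4, 118, and 118 CPM, and the s-GAG wounds 76.9, 127, and 86.7 CPM. Day 7 exceeded day 3 in these 3 treatments, 2.37-fold, 2.09-fold, and 1.65-fold. The Alg wounds ran the other way, with 101, 81.9, and 56.2 CPM. The fitted log2 fold change of day 7 against day 3 was 0.64 ± 0.34 (edgeR adjusted p = 0.999). On day 7 all 3 dressed wounds lay below control, with Alg past 2-fold at a log2 ratio of −1.08.

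**Figure D4:**
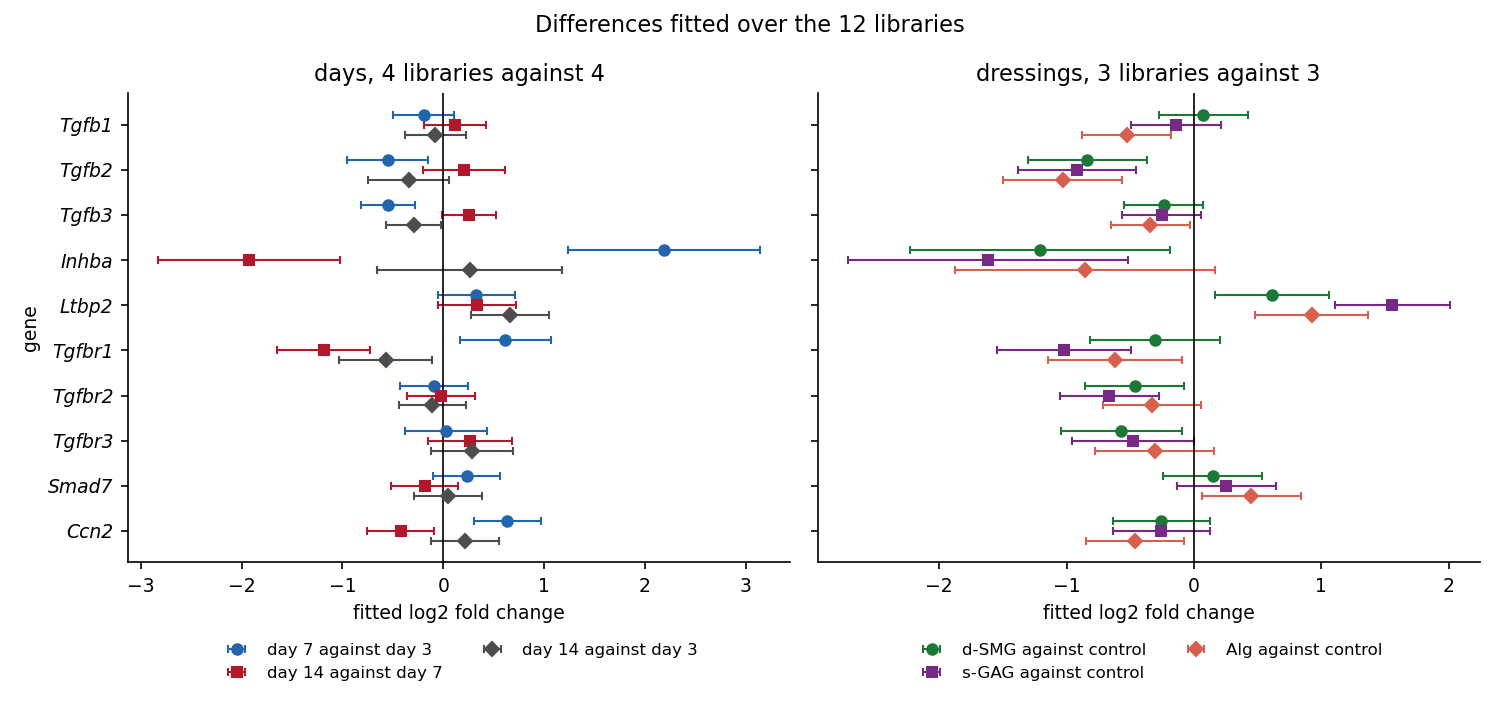
Fitted log2 fold change with its standard error for the 10 genes, for the 3 comparisons of days and the 3 of dressings against control, from the fit of treatment and day to 12 libraries. None passed an adjusted p of 0.05. Inhba spans the widest range, from 2.19 on day 7 against day 3 to −1.93 on day 14 against day 7, and Ltbp2 lies at 1.56 in s-GAG against control.

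None of the 10 genes was called in any of the 7 fitted comparisons, against a background of 0.0% of all 16110 genes in each of them. With 1 library per treatment and day, days acted as replicates of a treatment and treatments as replicates of a day, so the p-values measure the spread among these libraries. A treatment effect that changed with the day counted as spread in this fit. At an unadjusted p under 0.05, day 7 against day 3 held 292 genes (1.81%), day 14 against day 7 held 502 (3.12%), and day 14 against day 3 held 798 (4.95%). Against control, 218 genes (1.35%) did so for d-SMG, 1492 (9.26%) for s-GAG, and 502 (3.12%) for Alg, and 716 (4.44%) for d-SMG against s-GAG. Of the set, Inhba on day 7 against day 3, Tgfbr1 on day 14 against day 7, and Ltbp2 in s-GAG against control did so. DESeq2, an alternative with another estimate of the spread, called 0, 7, and 39 genes between the days, 9, 288, and 88 for d-SMG, s-GAG, and Alg against control, and 28 for d-SMG against s-GAG, none of them among the 10.

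Against control the fitted values of the set were mostly negative. For d-SMG, 7 of 10 were negative with a median log2 fold change of −0.28, beside −0.03 over all genes. For s-GAG, 8 of 10 were negative with a median of −0.37, beside 0.00 over all genes. For Alg, 8 of 10 were negative with a median of −0.40, beside −0.03 over all genes. Ltbp2 and Smad7 were positive in all 3, the latter at less than 0.5. The 3 medians rest on the same control libraries, and 0 genes of the set passed the test. Between days the set was evenly divided, with 6 positive for day 7 against day 3, 5 for day 14 against day 7, and 5 for day 14 against day 3. Of d-SMG against s-GAG, 7 were positive, with a median of 0.05.

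Each dressed wound was also set beside the control wound of its day, with an exact counting interval and no test, since there was 1 library on each side. A gene was counted when the ratio passed 2-fold. On day 3, the background was 22.9% of genes for d-SMG, 25.4% for s-GAG, and 20.2% for Alg. Of the set, 0, 3, and 1 passed, all of them higher. They were Inhba, Smad7, and Ltbp2 in s-GAG wounds, at log2 ratios of 1.22, 1.04, and 1.06, and Ltbp2 in Alg wounds, at 1.25. At 2.33-fold above control, Inhba in s-GAG wounds on day 3 was thus on the other side of control than on day 7 and 14.

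On day 7, the background was 13.1% for d-SMG, 24.4% for s-GAG, and 24.4% for Alg, and 1, 3, and 3 genes of the set passed 2-fold. Inhba was lower in all 3, at log2 ratios of −2.71 (95% interval −2.80 to −2.62) in d-SMG, −3.78 (−3.87 to −3.68) in s-GAG, and −2.74 (−2.85 to −2.64) in Alg. These correspond to 6.54-fold, 13.7-fold, and 6.68-fold lower levels, and all 3 rest on the same control library. Tgfbr1 was lower in s-GAG and Alg at −1.70 and −1.78, and Ccn2 in Alg at −1.08. Ltbp2 in s-GAG, at 1.29 (1.06 to 1.52), was the only gene of the set past 2-fold above control on this day.

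On day 14, the background was 28.7% for d-SMG, 57.8% for s-GAG, and 21.3% for Alg, and 3, 6, and 2 genes of the set passed. Ltbp2 was higher in all 3 dressed wounds, at 1.89 (1.62 to 2.16) in d-SMG, 2.46 (2.20 to 2.72) in s-GAG, and 1.11 (0.82 to 1.40) in Alg. Tgfb2 was lower in all 3, at −1.63, −1.81, and −2.28. Tgfbr3 was lower in d-SMG at −1.36 and in s-GAG at −1.94. In s-GAG, Inhba, Tgfbr1, and Tgfbr2 were also lower, at −2.52, −1.75, and −1.39. The 6 of 10 genes in this wound stand beside 57.8% of all genes, close to the same share.

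**Figure D5:**
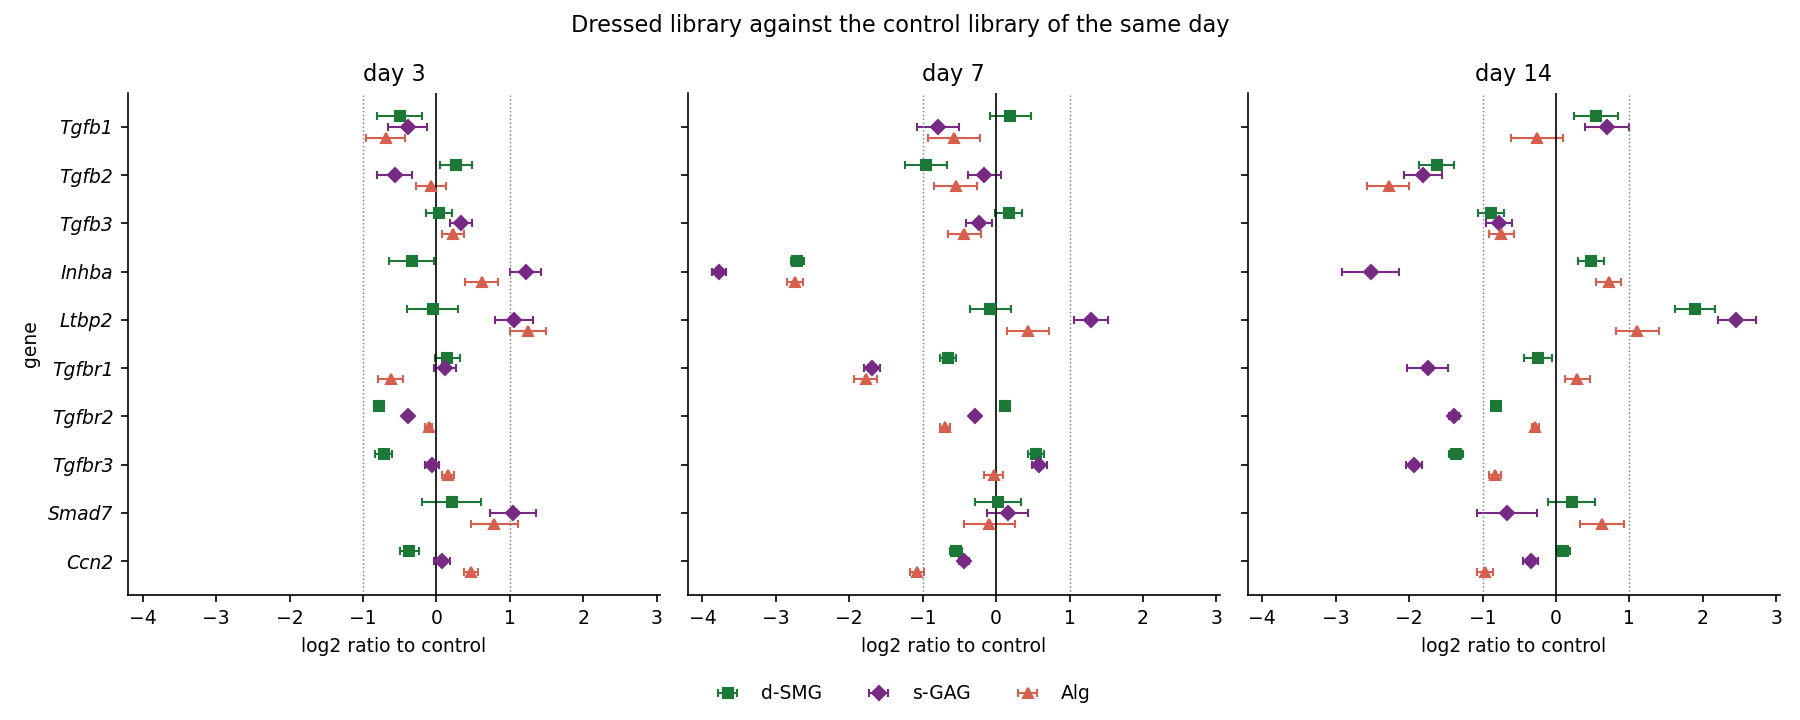
Log2 ratio of each dressed wound to the control wound of the same day for the 10 genes, with bars for the 95% exact counting interval and dotted lines at 2-fold in either direction. Ltbp2 lies above control in all 3 dressed wounds of day 14, Inhba below it in all 3 of day 7, and Tgfb2 below it in all 3 of day 14.

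All 3 dressed wounds lay on 1 side of control for 4 of the 10 genes on day 3, for 4 of them on day 7, and for 5 of them on day 14. The corresponding shares of all genes were 48.0%, 51.5%, and 58.9%, so the set did not stand out, and the 3 ratios of a day share 1 control library. On day 3 they lay above control for Tgfb3 and Smad7, and below it for Tgfb1 and Tgfbr2, with 6 genes mixed. The d-SMG log2 ratios of Tgfb3 and Smad7 on that day, 0.04 and 0.21, had counting intervals that included 0. In FPKM both lay below control. On day 7 they lay below control for Tgfb2, Tgfbr1, Inhba, and Ccn2, above it for no gene, and 6 were mixed. On day 14 they lay below control for Tgfb2, Tgfb3, Tgfbr2, and Tgfbr3 and above it for Ltbp2, with 5 mixed. Tgfb2, on day 7 and 14, and Tgfbr2, on day 3 and 14, were below control in all 3 dressed wounds on 2 of the 3 days, and no gene was on 1 side on all 3.

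Of 75 further genes of the pathway in 7 lists, none was called in any of the 7 comparisons. One list held 15 target genes, which encode matrix and contractile proteins such as the collagens Col1a1 and Col3a1, fibronectin (Fn1), and smooth muscle actin (Acta2). Their summed level was 8745, 51520, and 32430 CPM in control wounds on day 3, 7, and 14, 8221, 30250, and 18870 CPM in d-SMG wounds, 23080, 9469, and 11290 CPM in s-GAG wounds, and 11260, 13460, and 16910 CPM in Alg wounds. Like Inhba, it was highest in the control wound of day 7, and in s-GAG wounds it was highest on day 3. Over 12 libraries log2 Inhba and the log2 sum had r = 0.74 and rho = 0.70, and r = 0.62 without the 2 farthest libraries.

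In the fits, 14 of 15 target genes were positive on day 7 against day 3 with a median log2 fold change of 0.76, and 14 were negative on day 14 against day 7 with a median of −0.36. Against control, 13 of 15 were negative for each dressing, with medians of −0.36 for d-SMG, −0.57 for s-GAG, and −0.65 for Alg. On day 7 alone, 4, 13, and 12 of 15 were past 2-fold below control in d-SMG, s-GAG, and Alg wounds, beside 6.38%, 12.5%, and 11.9% of all genes. All these counts rest on the same control library, the one with the highest summed level. On day 3 the direction was the other, with 7 of 15 past 2-fold above control in s-GAG wounds, beside 14.6% of all genes, and 2 below. The medians of that day were 0.39 for s-GAG, 0.44 for Alg with 13 of 15 positive, and −0.04 for d-SMG. On day 14 they were 0.01, −0.19, and −0.52 for d-SMG, s-GAG, and Alg, with 8, 5, and 5 of 15 positive. Fibroblast markers moved alongside in the fits against control. Of 10 markers, 8 were negative for d-SMG, 10 for s-GAG, and 9 for Alg, at medians of −0.39, −0.70, and −0.45. Past 2-fold below control on day 7 were 0, 9, and 9 of these 10 in d-SMG, s-GAG, and Alg wounds. Their part in the values of the target genes was not tested.

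Against control, the medians of the other 6 lists lay nearer to 0 than that of the target genes for each dressing. The 12 genes of latency and activation, which include the integrins and thrombospondin that release TGF-β, had a median of −0.52 for s-GAG against control with 8 negative, −0.14 for Alg, and −0.04 for d-SMG. The list of other ligands also held Bmp1, which encodes a protease and not a ligand. Of the 11 genes of that list tested, 6, 7, and 7 were negative against control for d-SMG, s-GAG, and Alg. The 10 other receptors had medians of 0.01, −0.11, and −0.11, the 6 SMAD transducers −0.06, −0.09, and −0.09, and the 10 intracellular inhibitors 0.14, 0.15, and 0.03. The 9 secreted antagonists tested had medians of −0.19, −0.24, and −0.16. Smad7, measured within this set, thus stood beside inhibitors whose values were evenly divided, with 5 of 10 positive for each dressing.

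The genes whose profiles over the 12 libraries were most like those of the set were sought among 12716 genes by the correlation of log2 CPM, as a description. For Inhba they were Clmp, an adhesion molecule gene, with r = 0.97 and rho = 0.92, and Fbn2, encoding the microfibril protein fibrillin-2, with r = 0.96 and rho = 0.88. Without the 2 libraries farthest from the median the r were 0.86 and 0.90. For Ltbp2 they were Adgrg1, an adhesion G protein-coupled receptor gene, with r = 0.96 and rho = 0.94, and Slc39a6, a zinc transporter gene, with r = 0.96 and rho = 0.93. For Tgfbr1 they were Ggta1 and Col11a1 at r = 0.98 and 0.96, and for Tgfbr2 Lhfpl6 and Colec12 at r = 0.97 and 0.96. Tgfbr3 was most like Capn5 and Aox3, at r = 0.94 and 0.93, and Smad7 most like Cbx1 and Luzp1, at r = 0.97 and 0.96. Tgfb1 was most like Sh3bgrl3 and Plekho1, at r = 0.92 and 0.91, and Tgfb2 most like Ppfia4 and Herpud1, at r = 0.92 for both. For Tgfb3 and Ccn2 the closest genes had r = 0.86 (LOC120100783) and 0.84 (Pcnx3), the lowest of the 10. These points share the library, its depth, and its tissue composition.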

How the data were processed

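Total RNA of 12 wound libraries was sequenced as stranded, ribosomal RNA-depleted paired-end reads of 150 bases. The authors deposited a table of read counts per gene and a table of FPKM per gene, the latter normalized by them for transcript length and depth. The submitters' processing notes name bcl2fastq, FastQC, TopHat2, and edgeR, while the genome build and the counting tool were not given in the sources used here. Of the per-sample columns of each table, 1 matched no sample and was not used. Samples were grouped by the treatment and day in the labels.

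Read counts were tested with edgeR 4.0.16 (R 4.3.3), with TMM scaling, its default filter on low counts (16110 genes kept), and a quasi-likelihood fit of treatment and day without interaction to all 12 libraries, which leaves 6 residual degrees of freedom. The 7 contrasts were adjusted over all genes by Benjamini-Hochberg at 0.05. SE is the log2 fold change divided by the square root of F. The code was tested on simulated data. Single-day ratios used genes with at least 10 reads in the pair, counts under 3 raised to 3, and exact (Clopper-Pearson) 95% intervals, which, like those of CPM, cover counting error only. The depth ranged 2.79-fold between libraries. FPKM ordered genes by level. Fitted values are printed for each member where they reach 0.5 in size (25 of 70), and the 45 others are described by counts. For each member the 2 closest genes were sought among those with a mean log2 CPM of at least 1. Genes of other lists were to be named where they passed the test, and none did; example genes of a list are named without values. Sequences came from RefSeq (GRCr8), where all 10 members were matched, and the motifs were chosen after the values were seen. Alternatives comprised other size factors, filters, DESeq2 1.42.0, limma 3.58.1 on log2 FPKM with pseudocounts of 1 and 0.1, a fit without the second factor, fits of only the libraries compared, and omission of each library or day. Members and lists were chosen with earlier results of these data known.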

Additional observations from a re-analysis of the deposited data

Results flagged for a closer look

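In 3 of 30 sets of 4 libraries (10 genes on 3 days) a library lay far from the others by Dixon's criterion at 95% for 4 values, on the CPM or the log2 CPM scale, and each time it was the control library, as the highest. Tgfb3 on day 14, at 43.8 CPM against 23.7 to 26.1 CPM in the 3 dressed libraries, had a gap to the nearest library of 0.842 of the range in log2 CPM and 0.879 in CPM, past the criterion on both scales. Inhba on day 7, at 391 CPM, and Tgfb2 on day 14, at 36.5 CPM, had gaps of 0.914 and 0.851 in CPM, past it, and of 0.718 and 0.714 in log2 CPM, not past it. Chance alone gives such a gap in about 1 of 20 sets on 1 scale. The 4 libraries of a day carry different treatments, so they are not replicates of 1 group.

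For Tgfb3 the 3 dressed libraries lay on opposite sides of control on 2 days in CPM. On day 3 all 3 lay above the control, with a median log2 ratio of 0.226. On day 14 all 3 lay below it, with a median of −0.779. The d-SMG ratio of day 3, at 0.04, had a counting interval that spanned control, and in FPKM that library lay below control. The difference between the days was not tested, since there was 1 library for each treatment and day.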

How the results depend on the processing

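The counts of 0 called genes held under most settings, and no setting called a gene of the set, the smallest adjusted p being 0.0574 (Ltbp2, s-GAG against control, DESeq2). DESeq2 called 7 genes for day 14 against day 7, 39 for day 14 against day 3, 9 for d-SMG, 288 for s-GAG, and 88 for Alg against control, and 28 for d-SMG against s-GAG. For s-GAG against control, 1 gene was called without the low-count filter, 12 from only the libraries compared, and 0 to 66 with 1 library or day left out, 66 without d-SMG day 3 and 1 without Alg day 7. For Alg against control, 2 were called from FPKM without a filter and 9 from only the libraries compared. At 1.5-fold, 43 of the 90 single-day ratios passed, against 22 at 2-fold. The share of all genes past 1.5-fold was not determined, so the count of 43 has no background beside it. The causes were not tested. Of the 25 printed fitted values, 5 changed sign in 1 or more alternatives, all with a library or day left out. Leaving out libraries or days, Inhba against control ranged from −2.02 to 0.38 (d-SMG, 0.20 without day 7), −3.44 to 0.089 (s-GAG), and −1.62 to 0.68 (Alg, 0.66 without control day 7). In d-SMG against control, Ltbp2 ranged from −0.00076 to 0.98 and Tgfbr3 from −1.10 to 0.024. Of the 45 smaller values 32 changed sign, the largest being 0.48 in size. Ltbp2 in s-GAG against control ranged from 1.17 to 1.84 with a library or day left out and was 0.96 from FPKM with a pseudocount of 1. No paired analysis was possible because the 12 libraries carry no replicate numbers shared between groups. The additive fit already holds the other factor, and without it as a replicate block 0 genes were called in each comparison. Depth and 1 library per treatment and day limit the intervals of the single-day ratios to counting error. In the alternatives run for these ratios, 232 values lay within the counting interval of the main ratio and were classed as the same. The other 128 lay outside it and were classed as moved. A change of sign was classed only for ratios of at least 2-fold, and none was found. Smaller ratios could change sign unseen, as those of Tgfb3 and Smad7 in d-SMG wounds on day 3 did in FPKM. The printed intervals do not cover the choice of processing.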
